A study of Bos indicus and Bos indicus x Bos taurus and Bos taurus with 6 samples.

Results

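Neutrophils carry much of their antimicrobial protein ready made, in the cytosol and in granules that are filled one type after another as the cell matures in the bone marrow. The calgranulins S100A8, S100A9 and S100A12 are calcium-binding cytosolic proteins that bind metal ions and act as alarm signals once released. Myeloperoxidase, encoded by MPO, belongs to the azurophil granules, which form early at the promyelocyte stage. Lactoferrin (LTF), lipocalin 2 (LCN2), the collagenase MMP8, the gelatinase MMP9 and the peptidoglycan-binding protein PGLYRP1 belong to the later specific and gelatinase granules. This order of granule filling was worked out mainly in human and mouse marrow, where transcripts of most granule proteins become scarce before the cell enters the blood.

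These 9 genes were followed in whole-blood RNA-seq of cattle of 3 breeds under heat stress, and were taken from the deposited count table by gene symbol. All 9 have an entry among the 21698 genes of the table, and 8 of them are among the 13455 genes with enough counts to be tested. The groups were Kedah-Kelantan cattle, a Bos indicus breed labelled heat-tolerant, Brangus, a composite breed labelled intermediate, and Holstein Friesian, a Bos taurus breed labelled heat-vulnerable. Each group had 2 libraries, which the labels call biological replicates, whereas 4 animals of each breed are mentioned in the design text, so how animals relate to libraries is not known here. All cows were adult, non-pregnant and non-lactating, aged 4.5 ± 1.2 years and weighing 450 ± 15 kg by the labels, kept on a university farm in Malaysia at a temperature-humidity index of 44.68, and bled from the jugular vein. Every group was heat-stressed, so the comparisons are between breeds and none is between heat and no heat.

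Total counts lay between 25275377 and 28668857 per library, so depth was similar throughout. The 9 genes took 0.0717% and 0.0812% of all counts in the Kedah-Kelantan libraries, 0.0794% and 0.127% in those of Brangus and 0.0311% and 0.222% in the Holstein Friesian pair. The libraries of a breed were not equally alike. Of 11371 genes with a mean count of at least 50, 29 differed by more than 2-fold between the Kedah-Kelantan replicates, 588 between the Brangus replicates and 2970 between the Holstein Friesian replicates. The Holstein Friesian libraries stand apart from each other for most of the genes described here, and results that involve this breed are therefore given with each of its libraries left out.

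The calgranulins were the most abundant of the 9 genes, and all 3 had the same pattern: lowest in Holstein Friesian replicate 1, highest in Holstein Friesian replicate 2, with the Kedah-Kelantan and Brangus libraries between them. S100A8, at 17085831 to 17086812 on the plus strand of chromosome 3, encodes the partner of S100A9 in the heterodimer calprotectin. It had 87.8 and 109 CPM in the Kedah-Kelantan libraries, 118 and 192 in those of Brangus and 40.6 and 350.1 in the Holstein Friesian pair, where CPM is the count scaled for depth by the TMM-adjusted library size. The Kedah-Kelantan libraries lay below both Brangus libraries, and both of these breeds fell inside the range of the Holstein Friesian pair. Positions are those of the deposited table, and the submitters' processing notes name the build ARS-UCD1.2.

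S100A9, at 17115128 to 17117829 on the minus strand of chromosome 3, encodes the other subunit of calprotectin. Its levels were 216 and 236 CPM in the Kedah-Kelantan libraries, 291 and 521 CPM in those of Brangus and 86.8 and 775 CPM in the Holstein Friesian pair. S100A12, at 17102730 to 17104176 on the plus strand between the other 2 genes, encodes a ligand of the receptor AGER. It reached 303 and 351 CPM in the Kedah-Kelantan libraries, 408 and 629.7 CPM in those of Brangus and 125 and 1215 CPM in the Holstein Friesian pair. In both genes the Kedah-Kelantan libraries again lay below the Brangus libraries, with a single Holstein Friesian library on either side. Per transcript length the order was S100A12 above S100A9 above S100A8 in all 6 libraries. In FPKM, the deposited unit that scales by both gene length and depth, S100A12 had 472 and 537 in the Kedah-Kelantan libraries, 528 and 806 in those of Brangus and 183 and 1593 in the Holstein Friesian pair. S100A8 had 247 and 300.0 FPKM in the Kedah-Kelantan libraries, 276 and 443 in those of Brangus and 107 and 828 in the Holstein Friesian pair.

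**Figure D1:**
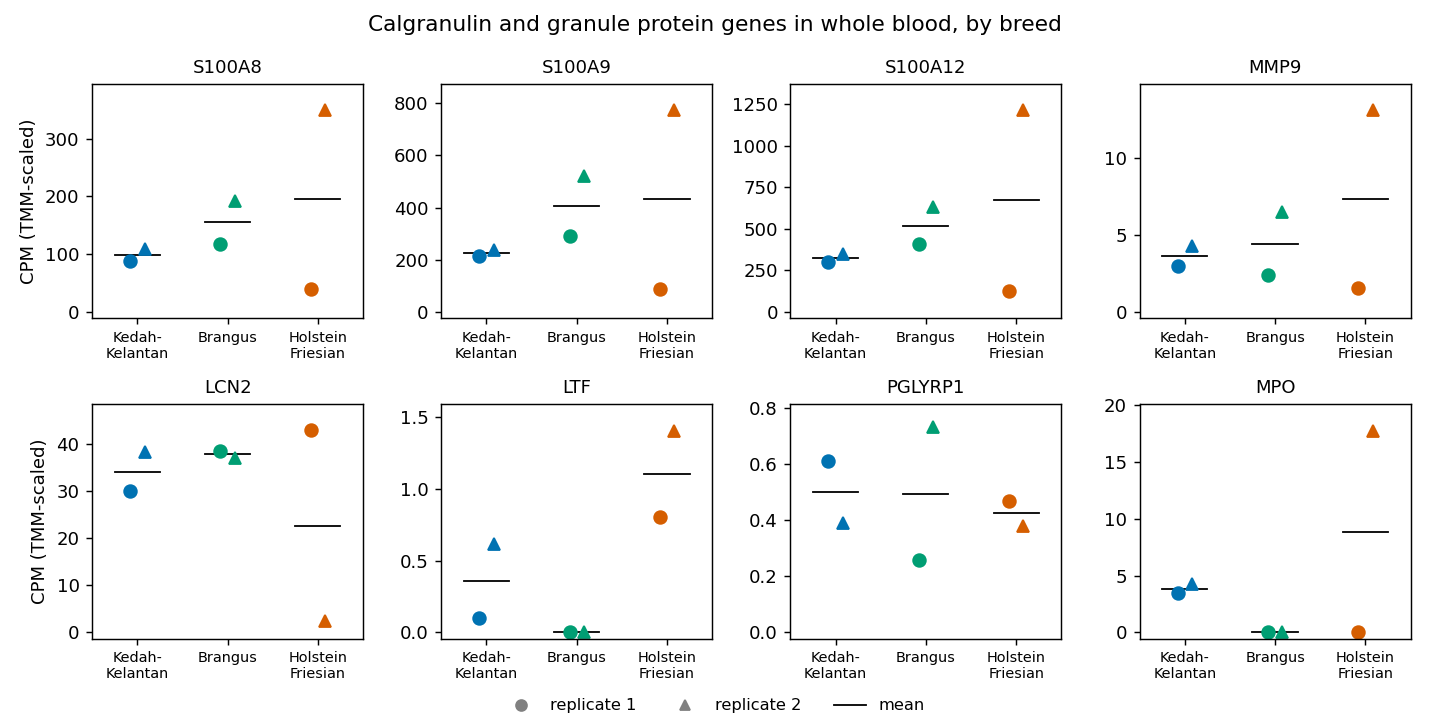
Level of each gene in each library, in CPM, with points for single libraries, Kedah-Kelantan (KK) and Brangus (B) left of Holstein Friesian (HF). The 2 Holstein Friesian points of each calgranulin enclose the other 4, the LCN2 point of Holstein Friesian replicate 2 lies far below the rest, and MPO is at 0 in both Brangus libraries and in Holstein Friesian replicate 1.

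Within each library the 3 calgranulin genes kept nearly fixed proportions while their levels moved. The S100A12 to S100A8 count ratio stayed between 3.09 and 3.47, a 1.12-fold range, and the S100A8 to S100A9 ratio between 0.368 and 0.468. Against this, Holstein Friesian replicate 2 had 8.62 times the S100A8, 8.93 times the S100A9 and 9.69 times the S100A12 of replicate 1. The Brangus replicates differed by 1.62-fold, 1.79-fold and 1.54-fold in the same genes and the Kedah-Kelantan replicates by 1.24-fold, 1.09-fold and 1.16-fold. The tightness of the trio can also be put as a distance. The root-mean-square difference of the mean-centred log2 CPM profiles over the 6 libraries was 0.0624 between S100A8 and S100A12, 0.125 between S100A8 and S100A9, and 2.26 between S100A8 and LCN2.

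MMP9, the gelatinase of the last granules to form, was the only later-granule gene of the 5 whose profile lay near the calgranulins. MMP9 lies at 74746991 to 74754302 on the plus strand of chromosome 13 and had 3.02 and 4.29 CPM in the Kedah-Kelantan libraries, 2.40 and 6.49 in those of Brangus and 1.54 and 13.2 in the Holstein Friesian pair. It was lowest in Holstein Friesian replicate 1 and highest in replicate 2, 8.52-fold apart, and its distance from S100A8 was 0.323. The Kedah-Kelantan libraries lay inside the range of the Brangus pair.

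LCN2, whose product keeps iron from bacteria by binding their siderophores, went the other way. LCN2 lies at 98781839 to 98785927 on the plus strand of chromosome 11. Its levels were 30.1 and 38.3 CPM in the Kedah-Kelantan libraries, 38.5 and 37.2 CPM in those of Brangus and 42.9 and 2.43 CPM in the Holstein Friesian pair, so 5 libraries were alike and Holstein Friesian replicate 2, the library richest in calgranulins, was far below them. Over the 6 libraries LCN2 spanned a 17.7-fold range in CPM. Counted per count of MS4A1, which encodes the B cell surface protein CD20, it spanned a 1.65-fold range, between 0.0341 and 0.0561. Ratios to other B cell markers were not formed, so this range holds for MS4A1 only. In the Holstein Friesian pair, replicate 2 had 0.0566 times the LCN2 and 0.0419 times the MS4A1 of replicate 1. Over the 8 listed B cell markers that value ran from 0.0303 for FCRLA to 0.280 for BLK. MS4A1 itself had 638 and 683 CPM in the Kedah-Kelantan libraries, 1131 and 986 in those of Brangus and 1086 and 45.5 in the Holstein Friesian pair. The summed level of the 8 listed B cell markers moved the same way: 1949 and 2082 CPM in the Kedah-Kelantan libraries, 3260 and 2690 in those of Brangus and 3236 and 221 in the Holstein Friesian pair, and its part in the LCN2 values was not tested. In bulk blood, fewer cells of a type and less RNA per cell cannot be told apart.

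The other later-granule genes were close to or at 0. LTF, which encodes the iron-binding protein lactoferrin and lies at 52953232 to 52986625 on the plus strand of chromosome 22, had 3 and 19 counts in the Kedah-Kelantan libraries, 0 and 0 in those of Brangus and 24 and 37 in the Holstein Friesian pair. With a 0 read as up to 3 counts per library, the mean CPM was at least 8.60-fold higher in Holstein Friesian than in Brangus. The 3 counts of Kedah-Kelantan replicate 1 are at that floor, so no bound is given between Kedah-Kelantan and Brangus. PGLYRP1, at 53513719 to 53515780 on the minus strand of chromosome 18, had 19 and 12 counts in the Kedah-Kelantan libraries, 6 and 17 in those of Brangus and 14 and 10 in the Holstein Friesian pair, so the breeds overlapped. MMP8, which encodes neutrophil collagenase, lies at 5932955 to 5944195 on the plus strand of chromosome 15 and had 0 counts in all 6 libraries. It was not tested, and at this depth a 0 allows at most 0.129 CPM in the shallowest library.

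MPO was the gene with the most uneven distribution of the 9. It lies at 9242040 to 9258755 on the minus strand of chromosome 19, and its product makes hypochlorous acid in azurophil granules. It had 107 and 131 counts in the Kedah-Kelantan libraries, 0 and 0 in those of Brangus and 0 and 467 in the Holstein Friesian pair, that is 3.44 and 4.26 CPM, 0 and 0 CPM, and 0 and 17.7 CPM in the same order of breeds. Both Kedah-Kelantan libraries thus lay above both Brangus libraries, and a single Holstein Friesian library lay on each side of them. With the floor of 3 counts per library, the Kedah-Kelantan mean was at least 29.9-fold higher than Brangus, and Holstein Friesian replicate 2 was at least 176-fold higher than replicate 1. Exact Poisson 95% intervals were 87.7 to 129 and 110 to 155 counts in Kedah-Kelantan and 426 to 511 counts in Holstein Friesian replicate 2. These intervals and floors cover counting error only. MPO passed the count filter only through the libraries in which it was present, as did LTF.

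**Figure D2:**
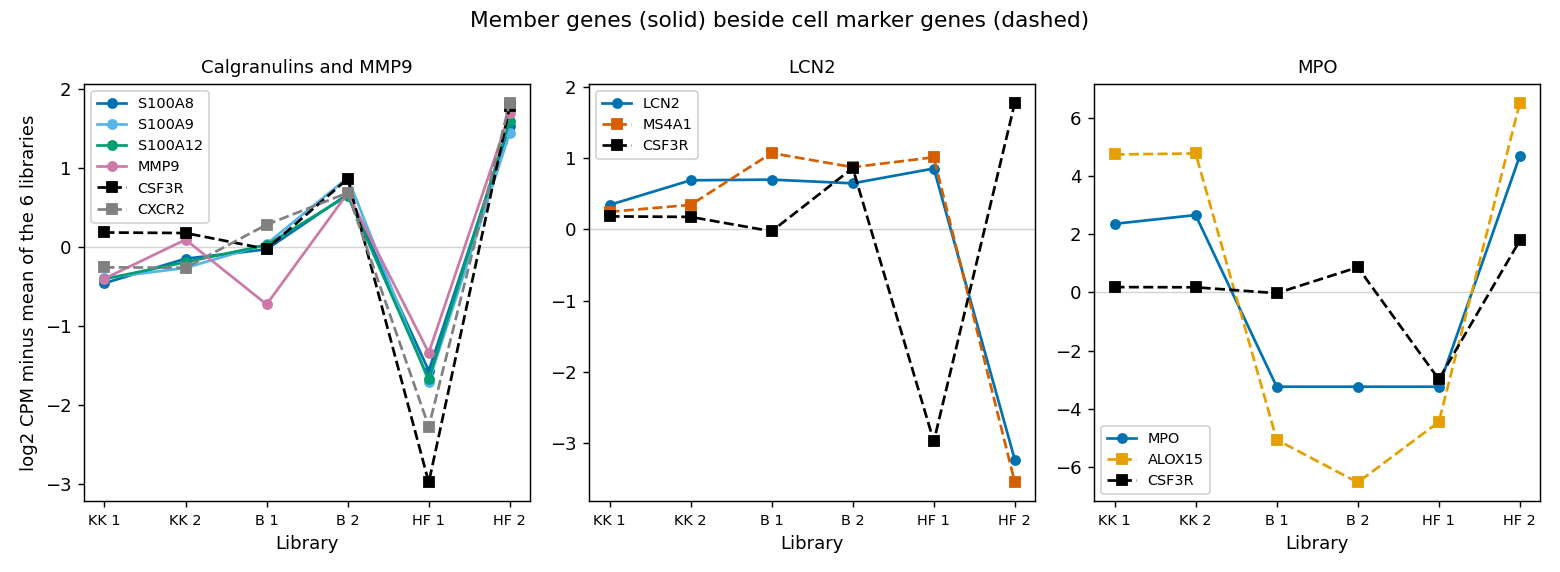
Mean-centred log2 CPM of the genes in the 6 libraries, with Kedah-Kelantan (KK) and Brangus (B) left of Holstein Friesian (HF) and a line for each gene. The calgranulin and MMP9 lines run together, LCN2 drops in Holstein Friesian replicate 2 where they peak, and MPO is low in both Brangus libraries and Holstein Friesian replicate 1.

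Early and late granule genes were compared within each library as log2 CPM of MPO minus the mean log2 CPM of the 5 later-granule genes, with a prior count of 2. The difference was 1.88 and 1.72 in the Kedah-Kelantan libraries, -3.26 and -3.79 in those of Brangus and -4.03 and 4.02 in the Holstein Friesian pair. MPO thus stood above the mean log2 CPM of the later genes in both Kedah-Kelantan libraries and in Holstein Friesian replicate 2, and below it in the other 3 libraries. That mean was held low by MMP8, at 0 in every library, and by LTF and PGLYRP1, close to or at 0. The breed mean of this value differed by 1.81 for Kedah-Kelantan minus Holstein Friesian, by -3.52 for Brangus minus Holstein Friesian and by 5.33 for Kedah-Kelantan minus Brangus. These sizes depend on the prior count, since MPO is at 0 in 3 libraries. No test was made, and the order of Kedah-Kelantan and Holstein Friesian turned on which Holstein Friesian library was used. The summed CPM of the later genes was 33.8 and 43.6 in the Kedah-Kelantan libraries, 41.2 and 44.4 in those of Brangus and 45.8 and 17.4 in the Holstein Friesian pair. LCN2 made up most of it in 5 libraries, and in Holstein Friesian replicate 2 MMP9, at 13.2 CPM, did. MPO, at 3.44 and 4.26 CPM, was far below this sum in Kedah-Kelantan, and at 17.7 CPM was close to it in Holstein Friesian replicate 2. The values therefore do not show more early than late granule RNA.

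Between breeds, none of the 8 tested genes passed the threshold of an adjusted p under 0.05 in edgeR's quasi-likelihood test, in any of the 3 comparisons. For Kedah-Kelantan against Holstein Friesian, 0 of 8 were called where 0.00743% of all tested genes were, and 0 of 8 had an unadjusted p under 0.05 where 4.04% of all genes did. DESeq2 also called 0 of 8, where it called 1.01% of all genes. S100A8 averaged 98.3 ± 14.9 CPM in Kedah-Kelantan and 195 ± 219 CPM in Holstein Friesian (SD, n = 2 each), with a log2 fold change of -0.99 (SE 0.94; adjusted p by edgeR = 0.995). S100A9 and S100A12 had log2 fold changes of -0.93 (SE 0.96) and -1.04 (SE 0.98), MMP9 -1.005 (SE 1.05), MPO -1.20 (SE 2.24) and LCN2 0.59 (SE 1.14), with adjusted p-values of 0.995 each by edgeR. The SD of the Holstein Friesian pair exceeded its mean in all 3 calgranulins, in MPO, in MMP9 and in LCN2. LTF was the only 1 of the 8 whose libraries did not overlap, lower in Kedah-Kelantan, against 12.6% of all genes in that direction and 30.7% in either, and the median log2 fold change of the 8 was -0.998, against -0.03 over all genes tested.

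The direction of this comparison turned with the Holstein Friesian library left out, with the remaining library assumed to vary like the other breeds. Without Holstein Friesian replicate 1, S100A8 had a log2 fold change of -1.83 (edgeR adjusted p = 0.00405) and LCN2 of 3.81 (edgeR adjusted p = 0.000161). Without replicate 2, S100A8 had a log2 fold change of 1.23 (edgeR adjusted p = 0.0332) and LCN2 of -0.37 (edgeR adjusted p = 0.272). S100A9 and S100A12 turned with S100A8: they were -1.78 and -1.89 without replicate 1, and 1.34 each without replicate 2. MPO was -2.20 (edgeR adjusted p = 0.009) without replicate 1, and without replicate 2 it was higher in Kedah-Kelantan, against a library at 0 (edgeR adjusted p = 0.0114). Each of these fits rests on 1 Holstein Friesian library, so its calls cannot be read as breed differences.

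For Brangus against Holstein Friesian, 0 of 8 were called where 0.00743% of all tested genes were. S100A8 averaged 155 ± 52.0 CPM in Brangus and 195 ± 219 CPM in Holstein Friesian (SD, n = 2 each), a log2 fold change of -0.33 (SE 0.93; adjusted p by edgeR = 0.922). S100A9 averaged 406 ± 162 CPM in Brangus and 431 ± 487 CPM in Holstein Friesian, a log2 fold change of -0.09 (SE 0.95; adjusted p by edgeR = 0.981). The calgranulin means of these breeds thus differed by far less than the spread within Holstein Friesian. LTF was the only gene of the 8 with an unadjusted p under 0.05, where 7.62% of all genes had one, and the only 1 whose libraries did not overlap, lower in Brangus, against 15.9% of all genes in that direction and 34.3% in either. Its adjusted p was 0.645 and that of MPO 0.656 by edgeR, and fitted fold changes are not given because both genes were at 0 in Brangus. DESeq2 called both, lower in Brangus, with adjusted p = 0.000273 for MPO and 0.0352 for LTF, where it called 2.33% of all genes. MPO was also at 0 in Holstein Friesian replicate 1. Both genes passed the count filter only through libraries in which they were present, so these calls are no support for a breed difference. Without Holstein Friesian replicate 1, S100A8 had a log2 fold change of -1.18 (edgeR adjusted p = 0.0152) and LCN2 of 3.95 (edgeR adjusted p = 5.94e-05). Without replicate 2, S100A8 had one of 1.89 (edgeR adjusted p = 0.0106) and LCN2 of -0.22 (edgeR adjusted p = 0.599). MPO and LTF, at 0 in Brangus, were lower there without Holstein Friesian replicate 1. These fits too rest on 1 Holstein Friesian library each, so their calls cannot be read as breed differences.

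The Kedah-Kelantan against Brangus comparison does not involve the diverging pair. Here 0 of 8 genes were called by edgeR and 0% of all genes were, while at an unadjusted p under 0.05 there were 1 of 8, LTF, and 11.6% of all genes. DESeq2 called 1 of 8, MPO, and 4.99% of all genes. Of the 8, 5 did not overlap between the breeds, MPO and LTF higher in Kedah-Kelantan, LTF with 1 library at the floor, and the 3 calgranulins lower, against 33.5% and 30.7% of all genes in those directions, so that a share of 5 of 8 is close to the 64.2% of the whole table. S100A9 averaged 226 ± 14.1 CPM in Kedah-Kelantan and 406 ± 162 CPM in Brangus (SD, n = 2 each), with a log2 fold change of -0.85 (SE 0.96; adjusted p by edgeR = 0.764). S100A8 and S100A12 had log2 fold changes of -0.66 (SE 0.94) and -0.67 (SE 0.97), with adjusted p-values of 0.819 and 0.822 by edgeR. LCN2 was nearly level, at 34.2 ± 5.79 CPM in Kedah-Kelantan and 37.8 ± 0.972 CPM in Brangus.

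MPO carried the largest difference between Kedah-Kelantan and Brangus, and its call depended on the estimate of the spread. It had an adjusted p of 0.485 in edgeR with all 6 libraries, in which the spread within Holstein Friesian enters. With only these 2 breeds in the edgeR fit the adjusted p was 0.00308, where 2537 genes were called, and in DESeq2 with all libraries it was 0.000498. MPO was tested only because of the libraries in which it was present, so these p-values are no support for a breed difference. The calgranulins were not called in either fit: with only the 2 breeds their edgeR adjusted p-values were 0.0792 for S100A8, 0.0505 for S100A9 and 0.0524 for S100A12.

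**Figure D3:**
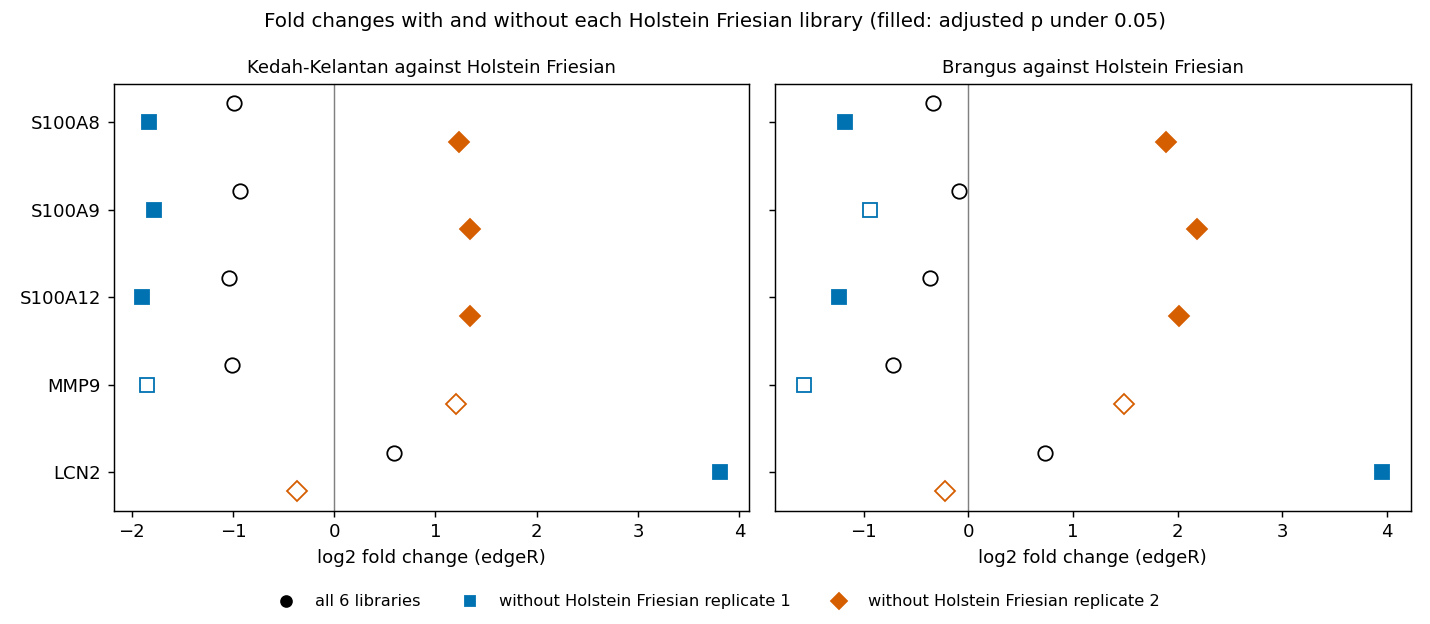
Log2 fold changes by edgeR from all 6 libraries and with each Holstein Friesian library left out. In both comparisons with Holstein Friesian the calgranulins lie below 0 without replicate 1 and above 0 without replicate 2.

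In the Holstein Friesian pair the calgranulin levels ran alongside genes of the mature neutrophil surface, which were present in all 6 libraries. The summed level of the 11 such genes in the table was 2610 and 2727 CPM in the Kedah-Kelantan libraries, 2331 and 3284 in those of Brangus and 1291 and 6452 in the Holstein Friesian pair. CSF3R, the receptor for granulocyte colony-stimulating factor, had 518 and 516 CPM in the Kedah-Kelantan libraries, 448 and 830.3 in those of Brangus and 57.6 and 1572 in the Holstein Friesian pair. The library with the least calgranulin RNA thus also had the least CSF3R. Between Kedah-Kelantan and Brangus the orders differed. Brangus replicate 1 was below both Kedah-Kelantan libraries in the sum and in CSF3R, but above them in the calgranulins. Of the 11 genes, 5 were lower in Kedah-Kelantan without overlap, as the calgranulins were, against 30.7% of all genes. Another 3 were higher without overlap, ITGAM and ITGB2 among them, against 33.5% of all genes. Of the 9 genes, LCN2, LTF, PGLYRP1 and MMP8 did not follow these surface genes, although they are labelled neutrophil granule genes, and MPO was at 0 in 3 libraries where the surface genes were present. No gene of the list was called by edgeR in any comparison, and 11 of 11 had a log2 fold change below 0 in both comparisons with Holstein Friesian, which share those libraries, where 53.5% of all genes did for Kedah-Kelantan and 52.7% for Brangus. Without Holstein Friesian replicate 1 it was again 11 of 11 in both, where 46.9% of all genes did for Kedah-Kelantan and 49.3% for Brangus. Without replicate 2 it was 2 of 11 for Kedah-Kelantan, against 48.2% of all genes, and 3 of 11 for Brangus, against 49.6%. The direction thus rested on replicate 2. These fits were added after the data were seen. The 9 monocyte markers, whose cells also make calgranulins, summed to 435 and 468 CPM in the Kedah-Kelantan libraries, 360.03 and 422 in those of Brangus and 135 and 1536 in the Holstein Friesian pair, with none at 0. Their sum was lowest and highest in the same Holstein Friesian libraries as the calgranulins, whereas both Kedah-Kelantan libraries lay above both Brangus libraries, the reverse of the calgranulin order. Their part in the calgranulin values was not tested.

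Setting calgranulin counts against a neutrophil gene of the same library changed the order of the libraries, in a way that depended on the gene chosen; these ratios were added after the data were seen. Per count of CSF3R, S100A9 stood at 0.417 and 0.458 in the Kedah-Kelantan libraries, 0.650 and 0.628 in those of Brangus and 1.51 and 0.493 in the Holstein Friesian pair. Holstein Friesian replicate 1, lowest in CPM, was highest on this scale, and the Brangus pair lay above the Kedah-Kelantan pair without overlap. Per count of CXCR2, a chemokine receptor, S100A9 stood at 1.06 and 1.16 in the Kedah-Kelantan libraries, 0.981 and 1.33 in those of Brangus and 1.73 and 0.893 in the Holstein Friesian pair. The 8.93-fold gap between the Holstein Friesian libraries in S100A9 thus narrowed on both of these scales and turned round, and the Brangus pair stayed above the Kedah-Kelantan pair per count of CSF3R but not of CXCR2. These orders hold for these 2 genes only and are no general scale of RNA per neutrophil.

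**Figure D4:**
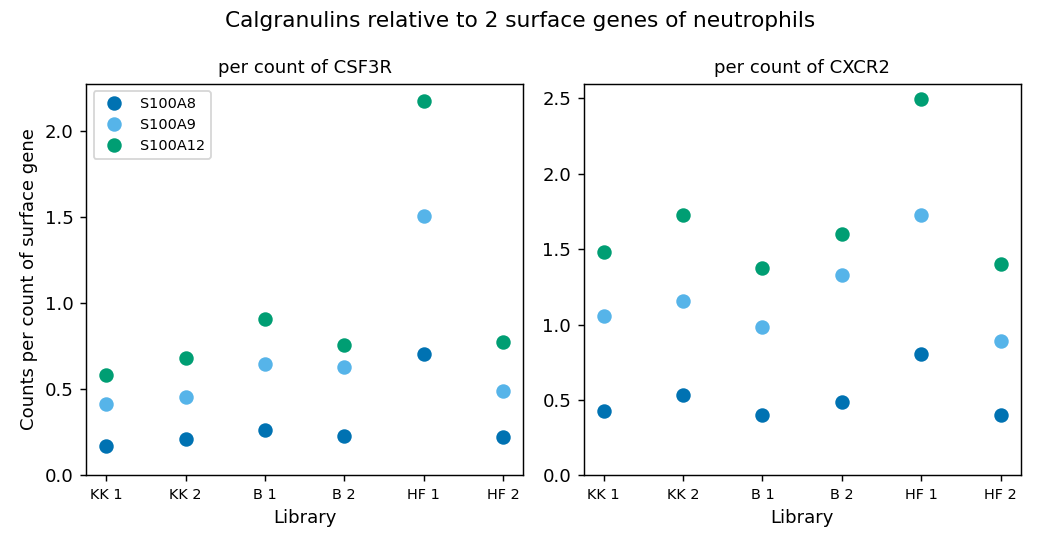
S100A8, S100A9 and S100A12 counts per count of CSF3R and of CXCR2 in the same library, with Kedah-Kelantan (KK) and Brangus (B) left of Holstein Friesian (HF). Holstein Friesian replicate 1 is the highest library per count of either gene.

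The wider granule lists held genes more abundant than the granule genes among the 9, and no gene of these lists was called by edgeR in any comparison. Among azurophil genes, 5 of 8 were tested. BPI, which encodes a protein that binds bacterial endotoxin, had 10.6 and 12.3 CPM in the Kedah-Kelantan libraries, 4.71 and 3.95 in those of Brangus and 1.98 and 38.8 in the Holstein Friesian pair, highest in Holstein Friesian replicate 2 and next in Kedah-Kelantan, as MPO was, but without zeros. ELANE, neutrophil elastase, had 2.28 and 1.69 CPM in the Kedah-Kelantan libraries, 1.93 and 0.816 in those of Brangus and 0.537 and 4.26 in the Holstein Friesian pair. PRSS57, a serine protease of the same granules, had 0.515 and 2.05 CPM in the Kedah-Kelantan libraries, 8.09 and 1.55 in those of Brangus and 0.470 and 5.25 in the Holstein Friesian pair. These 3 genes thus had counts in Brangus, where MPO was at 0. MS4A3, the remaining azurophil gene tested, went the other way in the Holstein Friesian pair, with replicate 2 at 0.0795 times replicate 1. It averaged 0.792 CPM in Kedah-Kelantan and 0.750 CPM in Brangus. PRTN3 and AZU1, also at 0 in both Brangus libraries, had at most 2 counts in any library.

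Of the 17 specific granule genes, 8 were tested, and the 3 most abundant are described here. TCN1, a vitamin B12 binder, had 46.6 and 48.1 CPM in the Kedah-Kelantan libraries, 87.9 and 128 in those of Brangus and 15.7 and 202 in the Holstein Friesian pair. HP, haptoglobin, had 41.3 and 54.5 CPM in the Kedah-Kelantan libraries, 7.53 and 11.8 in those of Brangus and 7.31 and 306 in the Holstein Friesian pair. CHI3L1, a chitinase-like protein, had 41.1 and 40.0 CPM in the Kedah-Kelantan libraries, 41.8 and 60.6 in those of Brangus and 5.54 and 145 in the Holstein Friesian pair. All 3 were highest in Holstein Friesian replicate 2 and lowest in replicate 1, as the calgranulins were and LCN2 was not. The cathelicidin genes CATHL1 to CATHL6, antimicrobial peptides of bovine neutrophils, and CAMP had between 0 and 12 counts per library, and CATHL4 had 0 in all of them.

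Of the gelatinase granule genes, 8 of 8 were tested. FCN1, a pathogen-binding ficolin that monocytes make as well, had 99.6 and 125 CPM in the Kedah-Kelantan libraries, 51.2 and 78.3 in those of Brangus and 47.4 and 813 in the Holstein Friesian pair. MMP25, a membrane-bound metalloproteinase, had 67.8 and 69.98 CPM in the Kedah-Kelantan libraries, 53.9 and 73.0 in those of Brangus and 13.1 and 263 in the Holstein Friesian pair. SLC11A1, a metal transporter of phagosomes, had 22.3 and 28.8 CPM in the Kedah-Kelantan libraries, 14.1 and 23.6 in those of Brangus and 5.03 and 181 in the Holstein Friesian pair. These 3 genes and MMP9 were lowest in Holstein Friesian replicate 1 and highest in replicate 2, and PGLYRP1 was not. Among the receptors for released calgranulins and granule proteins, TLR4, which binds S100A8 and S100A9, had 44.4 and 47.6 CPM in the Kedah-Kelantan libraries, 29.4 and 58.3 in those of Brangus and 18.7 and 127 in the Holstein Friesian pair, while BSG, another S100A9 receptor, stayed between 109 and 141 CPM.

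Some markers of other granulocytes and mast cells were low in the libraries without MPO, and others were not. The summed level of the 8 eosinophil, basophil and mast cell markers in the table was 444 and 461 CPM in the Kedah-Kelantan libraries, 46.9 and 42.4 in those of Brangus and 41.8 and 1323 in the Holstein Friesian pair, most of it from ALOX15, CCR3 and IL5RA. ALOX15, a lipoxygenase known from human eosinophils, had 5550 and 5639 counts in the Kedah-Kelantan libraries, 3 and 0 in those of Brangus and 7 and 16142 in the Holstein Friesian pair. CCR3, the eotaxin receptor, had 149.6 and 169 CPM in the Kedah-Kelantan libraries, 18.1 and 22.4 in those of Brangus and 7.41 and 481 in the Holstein Friesian pair. FCER1A, a chain of the IgE receptor, did not share the Brangus drop, at 5.02 and 8.06 CPM in the Kedah-Kelantan libraries, 8.09 and 5.88 in those of Brangus and 8.12 and 33.6 in the Holstein Friesian pair. The mast cell protease gene CPA3 likewise had 32 and 33 counts in the Kedah-Kelantan libraries, 34 and 23 in those of Brangus and 0 and 116 in the Holstein Friesian pair. GATA2 was at 0 in both Brangus libraries, MS4A2 in Brangus replicate 2 and Holstein Friesian replicate 1, and HDC in 5 libraries. MPO stood at 0.0193 and 0.0232 per count of ALOX15 in Kedah-Kelantan and at 0.0289 in Holstein Friesian replicate 2. The part of these cells in the MPO values was not tested. CEBPE, a transcription factor of late granulocyte maturation, was singled out after its values were seen. It had 353 and 497 counts in the Kedah-Kelantan libraries, 0 and 0 in those of Brangus and 4 and 959 in the Holstein Friesian pair. Of the 7 listed granulocyte transcription factors, only CEBPE was at 0 in Brangus. The most abundant of them, SPI1, CEBPD and CEBPB, averaged 202, 82.3 and 53.2 CPM in Kedah-Kelantan. Their means were 206, 67.6 and 50.2 CPM in Brangus and 317, 122 and 74.5 CPM in Holstein Friesian.

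The genes whose profiles over the 6 libraries were most like a given gene were found among 11061 genes with a mean log2 CPM of at least 1. Nearest to S100A8 outside the 9 were TMEM140 at a root-mean-square log2 difference of 0.0978, TNFRSF1A at 0.0989, C1RL at 0.111, PFKFB4 at 0.158 and BCL6 at 0.169. TNFRSF1A, the main tumour necrosis factor receptor, had 75.2 and 87.9 CPM in the Kedah-Kelantan libraries, 116 and 171 in those of Brangus and 38.8 and 297 in the Holstein Friesian pair. Nearest to MPO among these candidates were LOC518134, annotated as adhesion G protein-coupled receptor E4, at 0.591 and LOC100297044, annotated as C-C motif chemokine 14, at 0.854. Next came SMPD3 at 0.961, ADORA3 at 0.998 and SULF2 at 1.03, none of them as close as the genes nearest to S100A8. MPO itself lay below the level required of candidates. Genes as low as MPO were therefore left out, and whether any of them is a closer partner was not tested. Nearest to LCN2, a starting gene added after the data were seen, were SPIB at 0.1105, ARHGAP24 at 0.132, BCL11A at 0.155, CECR2 at 0.156 and DSB at 0.161. SPIB, a transcription factor of B cells, had 261 and 272 CPM in the Kedah-Kelantan libraries, 337 and 284 in those of Brangus and 334 and 21.3 in the Holstein Friesian pair. With 6 libraries these distances rest on few points, and they are descriptions of these libraries only.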

How the data were processed

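Whole-blood RNA-seq of 6 libraries, 2 per breed, was deposited by the authors as raw counts per gene and as FPKM. Per the submitters' processing notes the build was ARS-UCD1.2 and the tools included HISAT2 2.2.1 and featureCounts 2.0.1, besides DESeq2 1.38.0, Trimmomatic 0.39 and FastQC 0.11.9. Tool roles and strandedness were not given in the sources used here, so reads of overlapping genes on opposite strands may not have been separated. Counts were analysed with edgeR 4.0.16 (TMM scaling, filterByExpr, quasi-likelihood test with all 6 libraries, 3 residual degrees of freedom, common biological coefficient of variation 0.431) in R 4.3.3, with Benjamini-Hochberg adjustment over 13455 genes. DESeq2 1.42.0 on counts and limma 3.58.1 on log2(FPKM + 1) were alternatives. The steps were tested on simulated data in which every breed had the same spread. That checks the steps only, and not how the tests behave with a pair as unlike as the Holstein Friesian libraries. Reads carry no molecular identifiers. P-values measure the spread between these libraries only.

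The 9 genes and the gene lists were chosen with earlier results of these data known. Named besides the 9 are up to 3 genes of each granule, surface, receptor and transcription factor list with the highest mean CPM. The 5 genes nearest in profile to S100A8 and to MPO are named as well, plus genes marked as chosen after their values were seen. The remaining tested azurophil and gelatinase granule genes are also named. MMP8 could not be tested. No per-sample column was left unmapped. Calgranulin ratios to a further surface gene are not reported here.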

Additional observations from a re-analysis of the deposited data

How the results depend on the processing

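With 2 libraries per breed, the count of genes called was the least stable value. For Kedah-Kelantan against Holstein Friesian it was 1 in the edgeR fit of all libraries, 0 with a mean count of at least 50, with only the 2 breeds or with the replicate block, 131 by DESeq2, 2 by limma on log2(FPKM + 1), and 0 to 2464 with single libraries left out. For Brangus against Holstein Friesian it was 1, 0 with DESeq2 size factors (RLE), with a mean count of at least 50, with the 2 breeds alone or with the replicate block, 313 by DESeq2 and 0 to 4395 with libraries left out. For Kedah-Kelantan against Brangus it was 0, 672 by DESeq2, 2537 with the 2 breeds alone and 0 to 2458 with libraries left out. Of the 8 genes, 0 were called in each; with libraries left out 0 to 5, 0 to 5 and 0 to 1 were, by DESeq2 2 in Brangus against Holstein Friesian and 1 in Kedah-Kelantan against Brangus, and with the 2 breeds alone 1 in the last. Their median log2 fold change ran with libraries left out from -1.84 to 1.22, from -1.21 to 0.76 and from -0.69 to 0.22. For Brangus against Holstein Friesian it was 0.11 with the replicate block, 0.12 on log2(FPKM + 1) and 0.10 on log2(FPKM + 0.1), and for Kedah-Kelantan against Brangus 0.049 by library totals, 0.074 and 0.11 on the 2 FPKM scales. The early minus late difference ran from -2.21 to 5.83 for Kedah-Kelantan against Holstein Friesian and from -7.54 to 0.51 for Brangus against Holstein Friesian. With MPO and LTF set to their bounds the medians did not move. This was fixed beforehand, since both genes stay on the same side of the median.

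Single genes changed sign as follows. For Kedah-Kelantan against Holstein Friesian, MPO was 1.41 with the replicate block and 1.09 on log2(FPKM + 0.1). With libraries left out S100A8 ran from -1.83 to 1.23, S100A9 from -1.78 to 1.34, S100A12 from -1.89 to 1.34, MPO from -2.20 to 9.73, LCN2 from -0.37 to 3.81, MMP9 from -1.84 to 1.20 and PGLYRP1 from -0.12 to 0.52. For Brangus against Holstein Friesian, the replicate block gave 0.11, 0.33 and 0.10 for S100A8, S100A9 and S100A12, both FPKM scales 0.23, 0.48 and 0.27, and log2(FPKM + 0.1) -0.030 for PGLYRP1. With libraries left out these 3 ran from -1.18 to 1.89, -0.94 to 2.19 and -1.23 to 2.01, LCN2 from -0.22 to 3.95, MMP9 from -1.65 to 1.49 and PGLYRP1 from -0.76 to 0.74. MPO has no fold there without Holstein Friesian replicate 2, as both groups are then at 0. For Kedah-Kelantan against Brangus, LCN2 was 0.11 by library totals, 0.10 and 0.11 on the FPKM scales and -0.32 to 0.026 with libraries left out, MMP9 0.044 and 0.11 on the FPKM scales and -0.83 to 0.61, and PGLYRP1 -0.55 to 0.95. The cause was not tested.

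Replicate numbers did not pair the samples: deviations of replicate 1 correlated across genes at -0.0017, 0.0136 and 0.0541 between breeds.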

Other observations

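Among other S100 genes, picked after their values were seen, S100A1 was highest in both Brangus libraries. S100A1, at 16751807 to 16756164 on the minus strand of chromosome 3, had 3.80 and 7.70 CPM in the Kedah-Kelantan libraries, 79.5 and 75.3 CPM in those of Brangus and 7.11 and 11.4 CPM in the Holstein Friesian pair. Its edgeR log2 fold change was 3.06 for Brangus against Holstein Friesian (adjusted p = 0.452) and -3.75 for Kedah-Kelantan against Brangus (adjusted p = 0.337), while DESeq2 called both with adjusted p-values of 2.34e-07 and 1.63e-11. S100A10 had 167 and 202 CPM in the Kedah-Kelantan libraries, 185 and 218 CPM in those of Brangus and 137 and 339 CPM in the Holstein Friesian pair. The beta-defensin DEFB13 had 30 and 35 counts in the Kedah-Kelantan libraries, 10 and 14 in those of Brangus and 2 and 516 in the Holstein Friesian pair, and it passed no test by either tool.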
